A study of Saccharomyces cerevisiae with 6 samples.

Results

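Chromosome V of budding yeast was described in 6 RNA sequencing libraries from 3 strains, gene by gene and along its length. Its members were the features located on chromosome V with the status OK in all 6 tables of FPKM, a fragment count divided by feature length and by library size, without URA3 and CAN1. The rule gave 353 of the 7051 features with that status, made of 90 on the left arm (names starting YEL), 234 on the right arm (names starting YER) and 29 noncoding RNA genes. URA3 and CAN1, both on the left arm, were set aside because the strains differ in marker alleles of them, and YER137C-A and YER159C-A lacked the status. The chromosome was singled out because its median level in these same libraries was already known to differ between strains, so its levels and the counts over its genes are descriptions and carry no test. Members were chosen by position and status alone, with no threshold on level.

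By its title, the study deals with aneuploidy where thiol peroxidases, enzymes that reduce peroxides, are missing. All strains were MATa cells grown in rich glucose medium (YPD), and polyadenylated RNA was sequenced from 2 libraries each. The wild type (WT), titled Wt-M11 with monosome XI in its source label, was S288c with ade2-1, can1-100, his3-11,15, leu2-3, trp1-1 and ura3, GAL and [phi+], and carried HIS3 and KanMX6 between YKL006C-A and YKL006W on chromosome XI. D8A and D8B share 1 genotype label, with his3, leu2, met15 and ura3 and with cassettes replacing 9 genes: KAN at tsa1 and gpx3, URA3 at prx1 and gpx1, LEU2 at tsa2, MET15 at dot5, HIS3 at ahp1, HYG at gpx2 and NAT at srx1. The wild type therefore differs from D8A and D8B in auxotrophies as well as in peroxidases, and these cannot be told apart. Separate cultures for the 2 libraries of a strain are not stated in the labels, and p-values hence cover only the spread between these libraries, which may be technical.

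Background of the chromosome is as follows. A yeast chromosome has 1 point centromere, a short DNA element that assembles the kinetochore, with an arm on each side. RNA from a gene usually scales with the number of its copies, so a cell with an extra chromosome tends to make more RNA from most genes of that chromosome, and an extra copy of 1 arm raises that arm only. An equal doubling of RNA from every gene of an arm would move its median by 1 on the log2 scale used here. Bulk RNA from a culture cannot tell a change in every cell from a larger change in some of the cells.

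CEN5 divides the arms and is shown because the comparison of left and right turns on it. It spans 118 bp of build R64 (RefSeq), 84.7% of them A or T, and the chromosome has 576874 bp. Capitals mark its outer elements CDEI and CDEIII, and the lower-case stretch between them is CDEII, which is 91.6% A or T.
CEN5, chrV:151987-152104, plus strand: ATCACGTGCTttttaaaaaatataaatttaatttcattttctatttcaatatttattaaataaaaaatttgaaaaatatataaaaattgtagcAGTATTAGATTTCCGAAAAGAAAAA

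The promoter windows of 3 members with called changes are shown because each holds letters known as the core of a regulator's site. They run from 400 to 101 bases before the start codon, are written 5′ to 3′ on the gene's strand, and carry the motif of either strand in capitals. The letters are TGACTC for Gcn4, the activator of amino acid synthesis genes (HOM3), TCGTATA for Upc2, a sterol regulator (ERG28), and TGCACCC for Aft1, the iron regulator (FTR1).
HOM3 promoter window, chrV:258059-258358, minus strand: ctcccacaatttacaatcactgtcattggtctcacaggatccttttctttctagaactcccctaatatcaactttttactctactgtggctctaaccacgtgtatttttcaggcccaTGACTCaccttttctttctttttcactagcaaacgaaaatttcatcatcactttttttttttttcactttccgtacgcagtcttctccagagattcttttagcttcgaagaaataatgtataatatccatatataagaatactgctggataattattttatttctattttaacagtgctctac
ERG28 promoter window, chrV:238117-238416, minus strand: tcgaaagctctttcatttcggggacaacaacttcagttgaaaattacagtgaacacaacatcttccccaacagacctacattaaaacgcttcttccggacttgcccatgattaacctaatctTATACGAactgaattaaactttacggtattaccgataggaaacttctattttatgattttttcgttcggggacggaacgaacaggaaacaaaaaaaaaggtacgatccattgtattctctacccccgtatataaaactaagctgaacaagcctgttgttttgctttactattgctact
FTR1 promoter window, chrV:461841-462140, minus strand: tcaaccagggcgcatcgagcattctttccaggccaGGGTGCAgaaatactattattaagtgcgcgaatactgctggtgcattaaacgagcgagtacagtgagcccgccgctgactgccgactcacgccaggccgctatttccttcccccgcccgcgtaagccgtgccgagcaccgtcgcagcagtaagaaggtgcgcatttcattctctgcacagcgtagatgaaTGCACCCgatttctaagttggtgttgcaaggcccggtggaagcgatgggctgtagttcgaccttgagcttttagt
TGACTC was found on either strand in 11.3% of 282 such windows on chromosome V and in 8.47% of 6001 windows of the genome. TCGTATA was found in 3.90% on chromosome V and 4.58% in the genome, and TGCACCC in 1.42% and 1.45%. These motifs do not overlap each other in spelling, and a match is a description of letters, not of binding. Also searched were CACGTG for Cbf1, found in 8.51% on chromosome V and 4.55% in the genome, and AGGGG (STRE), in 27.7% and 23.5%. The HOM3 window holds 1 match to each, left in lower case.

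Estimated depth was 9.15 and 10.1 M fragments for WT, 4.02 and 8.06 M for D8A, and 14.2 and 10.6 M for D8B, and from 2 to 14 members were listed at 0 in a library, the most in D8A replicate 1. Of the 9 deleted genes, 8 were at 0 to 3.04% of the WT mean in the null libraries, but SRX1 was at 761%. Its FPKM was 52.8 and 76.8 in WT, 319 and 415 in D8A, and 654 and 584 in D8B, which goes against the label of a deletion. Directions below therefore refer to the libraries labelled D8A and D8B. The marker genes set aside moved in their own ways: URA3 had FPKM 158 and 145 in WT, 209 and 294 in D8A, and 70.5 and 59.1 in D8B, and CAN1 had 34.2 and 34.6, 18.1 and 26.3, and 43.9 and 68.3. Deposited FPKM of arm members was compared with the midpoint of its own interval. The ratio had a library median of 3.34 to 4.13 under 300 bp (22 genes) and of 1.02 to 1.07 at 1200 bp or more. Reads of overlapping features cannot be told apart where counting is not stated to use strand, and 88 arm members overlap another feature.

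Both arms of chromosome V together were slightly higher, relative to the other chromosomes, in the libraries labelled D8B than in those of WT and D8A. An arm's level was taken as the median of log2(FPKM + 1) over its genes with a mean FPKM of at least 1 (89 left, 230 right) less the same median over genes of the other 15 nuclear chromosomes. It was 0.02 and -0.01 in WT, -0.06 and -0.15 in D8A, and 0.13 and 0.21 in D8B. Both D8B libraries lay above both WT libraries, which lay above both D8A libraries. The D8B mean was 0.17 above WT and 0.27 above D8A, and the D8A mean was 0.11 below WT (-0.11), against a pooled SD between replicates of 0.051. These comparisons share libraries. With 2 libraries against 2, no exact permutation test can pass 0.05, and none is given.

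The left arm had levels of -0.12 and -0.11 in WT, -0.09 and -0.18 in D8A, and -0.04 and 0.36 in D8B. The right arm had 0.09 and 0.00 in WT, -0.05 and -0.13 in D8A, and 0.21 in each D8B library. D8B libraries were above those of WT and D8A on each arm, but on the left arm 1 library, D8B replicate 2, held most of the difference. The left arm difference between D8B and WT was 0.28 with a pooled SD of 0.167, and without D8B replicate 2 it was 0.081. On the right arm it was 0.17 with a pooled SD of 0.049, and leaving out 1 library at a time gave 0.12 to 0.21. The left arm minus the right arm was -0.21 and -0.12 in WT, -0.04 and -0.05 in D8A, and -0.25 and 0.15 in D8B. The 2 D8B libraries thus differed from each other by more than any group means did. No arm difference that involves D8B stood out from the replicate spread (SD 0.285 in D8B, 0.064 in WT and 0.006 in D8A). Both D8A libraries lay above both WT libraries, by 0.11 between means. That difference did not keep its sign, at -0.068 for features of 300 bp or more.

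**Figure D1:**
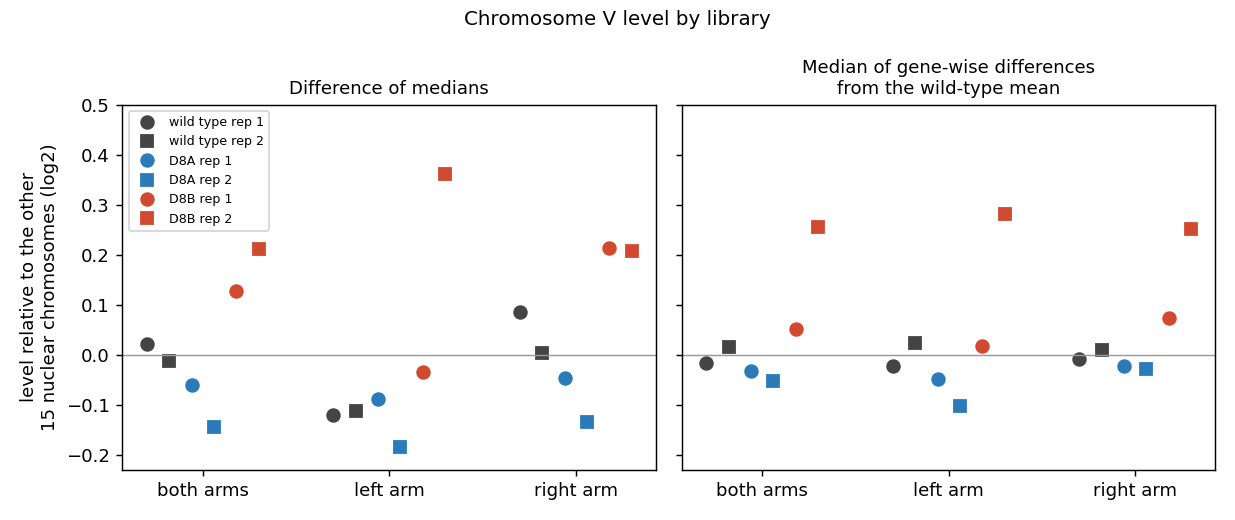
Level of chromosome V in each of the 6 libraries as points, by arm, with the median log2 difference of its genes from the other chromosomes on the vertical axis in both panels. Left, difference of medians; right, median of gene-wise differences from the WT mean. For both arms together the D8B libraries are the highest, at 0.13 and 0.21 in the left panel and 0.05 and 0.25 in the right panel.

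A measure chosen after the data were seen takes each gene's log2 difference from the WT mean and then the median, again minus the other chromosomes. By it, both arms together stood at -0.02 and 0.02 in WT, -0.03 and -0.05 in D8A, and 0.05 and 0.25 in D8B. The left arm gave 0.02 and 0.28 in D8B, and the right arm 0.07 and 0.25. The shift was thus far larger in D8B replicate 2 than in D8B replicate 1 on both arms, the D8A libraries lay between -0.02 and -0.10 on the 2 arms, and on the left arm D8B replicate 1 was level with WT replicate 2, also at 0.02. D8B was 0.15 above WT and 0.20 above D8A by this measure.

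Among the 16 nuclear chromosomes, each measured the same way, chromosome V had the highest value for D8B against WT and for D8B against D8A by both measures. By the difference of medians, chromosome V at 0.17 for D8B against WT stood beside 0.12 for the next highest (III), and at 0.27 for D8B against D8A beside 0.06 (X). For D8A against WT it was at -0.106, ranked 15 of 16 from the highest, with the other 15 from -0.108 (X) to 0.15 (VI). By the gene-wise measure the other 15 ran from -0.11 (IX) to 0.06 (I) for D8B against WT and from -0.15 (VI) to 0.03 (I) for D8B against D8A. For D8A against WT they ran from -0.08 (IX) to 0.06 (VI), a range that holds the -0.04 of chromosome V, again ranked 15 of 16. In single libraries, chromosome V at 0.25 lay above the highest other chromosome (I, at 0.11) in D8B replicate 2. In D8B replicate 1 it was at 0.05, beside 0.05 for chromosome III.

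**Figure D2:**
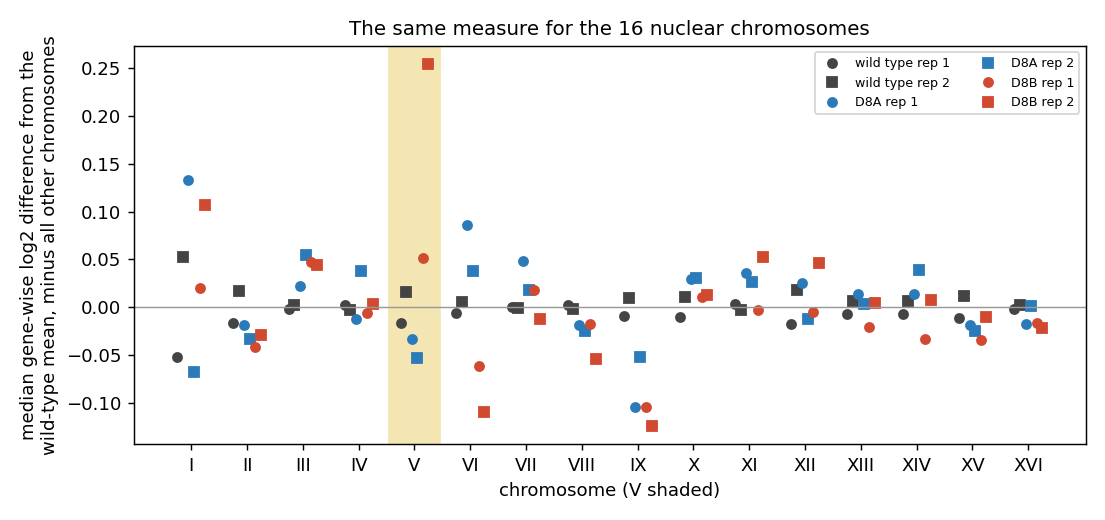
Median of the gene-wise log2 differences from the WT mean for each of the 16 nuclear chromosomes, minus all other chromosomes, with 1 point per library and chromosome V shaded. In D8B replicate 2 chromosome V is at 0.25, above the 0.11 of chromosome I, and in D8B replicate 1 it is at 0.05, level with chromosome III.

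In D8B replicate 2, 62.9% of left arm genes and 70.0% of right arm genes lay above the median difference of the other chromosomes. In D8B replicate 1 the shares were 51.7% and 55.7%, in D8A 46.1% and 36.0% on the left and 48.7% and 47.0% on the right, and in WT 40.4% to 59.6%. In D8B replicate 2, 5 left arm genes (5.62%) and 20 right arm genes (8.70%) lay more than 1 log2 unit above that median, as did 3.51% of genes on the other chromosomes. More than 1 below lay 6 left arm genes (6.74%) and 7 right arm genes (3.04%), beside 7.22% on the other chromosomes. Split by level, chromosome V minus the rest was 0.27 for the 37 genes with mean FPKM from 1 to under 10, 0.29 for the 185 from 10 to under 100 and 0.24 for the 97 of 100 or more, and in D8B replicate 1 it was 0.00, 0.10 and 0.00. Split by length in D8B replicate 2, it was 0.27 under 300 bp, 0.30 from 300 to under 1200 bp and 0.27 from 1200 bp. In D8B replicate 1 the same classes gave -0.17, 0.07 and 0.08, with the short genes below the rest.

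Along the chromosome, the differences were uneven in every null library. In windows of 50 kb, D8B replicate 2 ran from -0.02 at 250 to 300 kb to 0.60 at 500 to 550 kb, and 10 of the 11 windows with 20 genes or more were above 0. D8B replicate 1 ran from -0.15 to 0.27, with 8 of 11 above 0, and each D8A library had 3 of 11 above 0. The WT libraries lie mirrored about their own mean by construction, and they differed from each other by -0.09 to 0.18. All 4 null libraries were below 0 at 250 to 300 kb, a stretch that holds HOM3, HIS1 and PIC2. All 4 were above 0 at 450 to 500 kb, at 0.32 and 0.22 in D8A and 0.27 and 0.43 in D8B, and again at 500 to 550 kb, at 0.32 and 0.13 in D8A and 0.03 and 0.60 in D8B. In the window at 450 to 500 kb, singled out after its values were seen, 13 of 28 genes were higher in all 4 null libraries than in both WT libraries and 1 was lower. Among them were MAG1, a DNA glycosylase, SCC4, a cohesin loader subunit, OXA1, a mitochondrial membrane insertase, and LSM5. Over all features 15.2% were higher in this sense and 16.3% lower. For the arms the counts were 10 of 89 higher and 18 lower on the left, and 53 of 230 higher and 37 lower on the right.

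**Figure D3:**
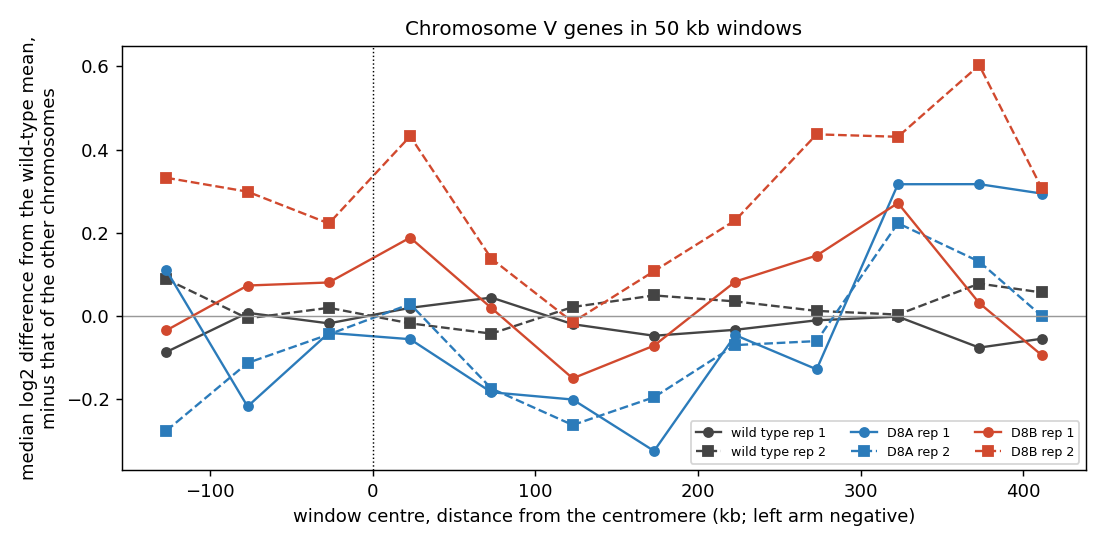
Median log2 difference from the WT mean in windows of 50 kb along chromosome V, minus the other chromosomes, 1 line per library, with the window centre on the horizontal axis in kb from the centromere (dotted line; left arm negative). D8B replicate 2 is above 0 in 10 of 11 windows of 20 genes or more, and all 4 null libraries are above 0 at 450 to 550 kb from the left end.

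Genes beside the centromere and at the chromosome ends moved in both directions, and none of them passed the test. On the left of CEN5, IRC22 had FPKM 197 and 182 in WT, 146 and 190 in D8A, and 261 and 257 in D8B, and WBP1, a subunit of the oligosaccharyltransferase, had 132 and 138, 128 and 156, and 189 and 221. Both genes were higher in each D8B library than in any other, with log2 differences from WT of 0.45 and 0.59 that did not pass limma's test (adjusted p = 0.324 and 0.187). On the right, MNN1, a Golgi mannosyltransferase, had 48.5 and 54.7 in WT, 33.0 and 35.2 in D8A, and 29.7 and 45.9 in D8B. Both null strains lay below WT there, without passing (limma adjusted p = 0.258 and 0.336). GIM4, a prefoldin subunit on the left, had a log2 difference of 0.60 in D8B (limma adjusted p = 0.241). On the right, NOP16 (log2 0.21, D8B against WT) and PMI40 (0.19) were closer to WT. The 3 tested genes nearest each end, which have near-identical copies at other chromosome ends and may share reads with them, had log2 differences from WT between -0.07 and 0.22.

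Tested gene by gene in the limma fit over all 6925 features, few chromosome V genes passed. For D8A against WT, 10 of 348 tested members were called and all were lower, where 5.05% of all features were called (1.23% higher and 3.83% lower). For D8B against WT, 14 were called, 5 higher and 9 lower, where 4.9% of all features were (1.21% higher and 3.68% lower). Among the 301 members of 300 bp or more, this fit called 2 higher (0.664%) and 7 lower (2.33%) in D8B against WT. For D8B against D8A, 3 were called, all higher and all on the right arm, where 0.332% of all features were (0.217% higher and 0.116% lower). Of the calls, 1 in D8A and 4 in D8B were on the left arm, and CYC7 was the one gene called there in both. The counts of members with unadjusted p under 0.05 were 75, 97 and 54 (21.6%, 27.9% and 15.5%), beside 17.7%, 18.5% and 8.82% of genes on the other chromosomes. Median log2 differences over the members were -0.09, 0.18 and 0.23, against -0.01, 0.06 and 0.07 over all features.

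Scaling changed these counts, over all features as well as on chromosome V. After quantile normalization 25 members were called for D8A (6 higher, 19 lower) and 24 for D8B (11 higher, 13 lower), where 7.03% and 7.10% of all features were called. After centring the libraries there were 26 (4 higher, 22 lower) and 25 (12 higher, 13 lower), where 6.82% and 6.69% were. For D8B against D8A neither scaling called any. A fit to features of 300 bp or more called 43 of 301 members for D8A (10 higher, 33 lower), 55 for D8B (33 higher, 22 lower) and 14 between the null strains, where 13.0%, 13.2% and 3.19% of all its features were called. With 1 library left out the counts ran from 5 (without either WT library) to 25 (without D8A replicate 2) for D8A, from 3 (without WT replicate 2) to 23 (without D8A replicate 1) for D8B, and from 0 (without either D8B library) to 8 (without D8A replicate 2) between the null strains. The median difference from the WT mean over the other chromosomes was -0.15 and 0.13 in the D8A libraries and 0.05 and 0.03 in the D8B libraries.

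Members whose libraries did not overlap between groups, a condition with no test, were more numerous. Between D8B and WT, 37 left arm genes (41.6%) and 105 right arm genes (45.7%) were higher in both D8B libraries, where 30.0% of all features were, and 25 (28.1%) and 43 (18.7%) were lower, where 25.9% were. Between D8B and D8A, 37.1% on the left and 40.4% on the right were higher, where 19.7% of all features were, and 7.87% and 6.52% were lower, where 15.1% were. Between D8A and WT, 12 left and 66 right arm genes were higher, where 25.3% of all features were, and 27 and 74 were lower, where 26.1% were.

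**Figure D4:**
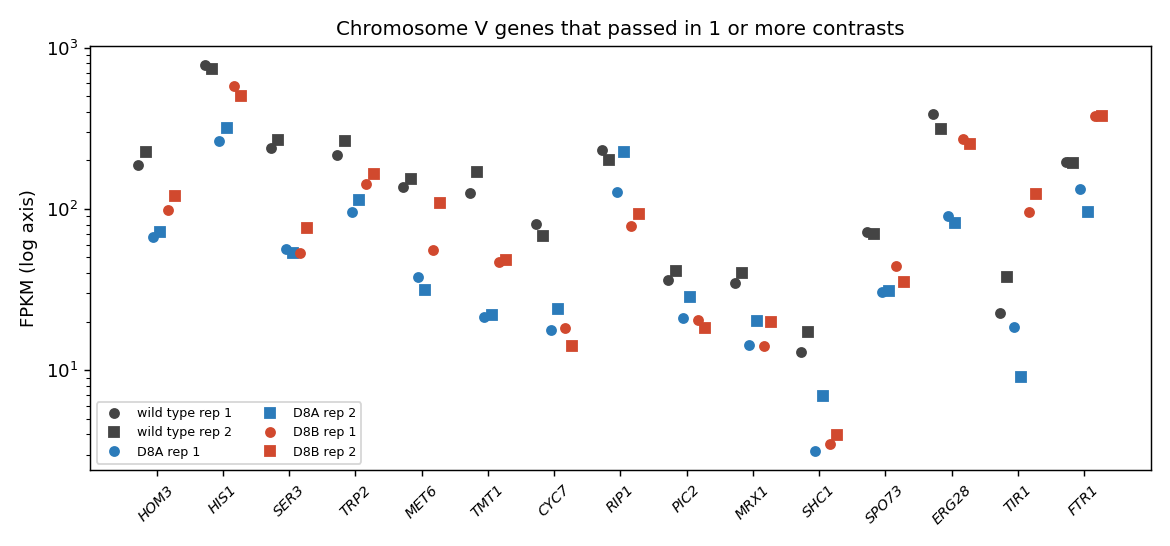
FPKM of chromosome V genes of 300 bp or more that passed in at least 1 contrast, on a log axis (YER145C-A, which overlaps LSM5, is not drawn), with 1 point for each of the 6 libraries. HOM3, HIS1, SER3, TRP2, MET6 and TMT1 are lower in both D8A libraries than in WT, and TIR1 and FTR1 are highest in both D8B libraries.

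Enzymes of amino acid synthesis formed the list with the most calls. Of 10 tested members, 5 fell in D8A and 1 in D8B, where 3.83% and 3.68% of all features were called lower. The median log2 difference was -1.08 in D8A and -0.56 in D8B. HOM3 is aspartate kinase, the first step towards threonine and methionine, and had FPKM 187 and 226 in WT, 66.6 and 71.5 in D8A, and 98.5 and 120 in D8B. HIS1, which starts histidine synthesis, had 777 and 733, 262 and 319, and 576 and 502. For both genes D8A was lowest, D8B lay between and no groups overlapped. In D8A, HOM3 fell by 1.56 ± 0.22 on the log2 scale (SE, limma adjusted p = 0.0071) and HIS1 fell by 1.38 ± 0.23 (limma adjusted p = 0.0169), while the D8B values of -0.91 and -0.49 did not pass (limma adjusted p = 0.062 and 0.309). The promoter window of HOM3 is the one printed above with 1 TGACTC match. GCN4 itself, on chromosome V and named outside the rule, had 1599 and 1862 in WT, 1157 and 1284 in D8A, and 1229 and 1589 in D8B. These are RNA levels, and the activity of its protein was not measured.

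SER3 makes the first enzyme of serine synthesis and lies beside SRG1, an RNA whose transcription across the SER3 promoter is known to repress it. SER3 had FPKM 240 and 267 in WT, 56.7 and 53.1 in D8A, and 53.3 and 76.6 in D8B. All 4 null libraries were far below WT. It fell by 2.18 ± 0.23 in D8A and by 1.97 ± 0.23 in D8B (limma adjusted p = 0.0025 and 0.0039). SRG1 had 65.6 and 72.1 in WT, 125 and 134 in D8A, and 87.5 and 116 in D8B, with log2 differences of 0.90 and 0.54 that did not pass (limma adjusted p = 0.064 and 0.231), and the 2 features overlap. MET6, methionine synthase, had 136 and 154, then 37.9 and 31.4, then 55.9 and 109, and fell by 2.04 ± 0.31 in D8A (limma adjusted p = 0.0112). TRP2, anthranilate synthase, fell by 1.18 ± 0.23 in D8A (limma adjusted p = 0.0287), and so did the 90 bp feature YER090C-A inside it, by 1.61 (limma adjusted p = 0.0358). TMT1, a methyltransferase of trans-aconitate, had 125 and 170, 21.4 and 21.9, and 47.0 and 48.1, and fell by 2.69 ± 0.21 in D8A and 1.60 ± 0.21 in D8B (limma adjusted p = 0.0006 and 0.0058). HIS1 held 2 TGACTC matches, TRP2, MET6 and TMT1 held 1 each and SER3 none. Without WT replicate 1, WT replicate 2 or D8A replicate 1 the calls of HIS1, TRP2, MET6 and YER090C-A were lost, and without WT replicate 2 that of HOM3 and that of TMT1 in D8B (highest limma adjusted p over the alternatives 0.159, 0.294, 0.0958, 0.304, 0.105 and 0.0818).

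Every gene called against WT in the chromosome V lists of mitochondria and respiration was lower. Of 6 respiratory chain genes, 1 was called in D8A and 2 in D8B. Of 13 other mitochondrial genes, 0 were called in D8A (2 with unadjusted p under 0.05) and 2 in D8B. Over all features, 3.83% were called lower in D8A and 3.68% in D8B, and 5.05% and 4.9% in either direction. The medians of the lists were -0.18 and -0.40, and -0.08 and -0.08. Of the 6 respiratory chain genes, 2 were above 0 in each strain, and of the 13 others 5 in D8A and 6 in D8B. PET122, of the respiratory list, had FPKM 12.9 and 12.5 in WT, 17.3 and 24.1 in D8A, and 21.4 and 31.2 in D8B. Its log2 differences of 0.65 and 0.97 did not pass (limma adjusted p = 0.232 and 0.077). CYC7, the minor isoform of cytochrome c, had FPKM 80.1 and 67.5 in WT, 17.9 and 24.1 in D8A, and 18.3 and 14.2 in D8B, and fell by 1.78 ± 0.23 and 2.12 ± 0.23 (limma adjusted p = 0.0053 and 0.0025). All 4 null libraries were below both WT libraries. Its partner CYC1 on chromosome X had 1114 and 841, 317 and 759, and 371 and 163, which did not pass (limma adjusted p = 0.348 and 0.072). RIP1, the Rieske iron-sulfur protein of complex III, had 230 and 202, 128 and 224, and 78.6 and 92.9, and fell by 1.33 ± 0.30 in D8B (limma adjusted p = 0.0472). TIM9, a 264 bp gene for an import chaperone of the intermembrane space, had 861 and 738, 594 and 859, and 341 and 275. It fell by 1.38 ± 0.27 in D8B (limma adjusted p = 0.0318), as did YEL020C-B, which overlaps it, by 1.87 (limma adjusted p = 0.0084). With interval midpoints YEL020C-B fell by 4.38, and its call was lost without either WT library or D8B replicate 2 (highest limma adjusted p over the alternatives 0.0690). In both genes the D8B libraries were the lowest, and the D8A libraries were far apart from each other. The difference between D8B and D8A did not pass for either gene (limma adjusted p = 0.333 for RIP1 and 0.159 for TIM9). PIC2, a mitochondrial carrier, fell by 0.97 in D8B (limma adjusted p = 0.0464), and MRX1, a mitochondrial protein outside the lists, by 1.10 (limma adjusted p = 0.0488). The calls of RIP1, TIM9, PIC2 and MRX1 were each lost when any 1 WT or D8B library was left out (highest limma adjusted p over the alternatives 0.252, 0.213, 0.375 and 0.357), and that of CYC7 in D8A without WT replicate 1 (0.0516).

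TIR1, ERG28 and FTR1, all on the right arm, were the members that differed between the null strains. TIR1, a cell wall mannoprotein known from growth without oxygen and in the cold, had FPKM 22.6 and 37.9 in WT, 18.6 and 9.07 in D8A, and 96.2 and 123 in D8B. Both D8B libraries were far above all others. TIR1 rose in D8B by 1.86 ± 0.36 against WT and by 2.97 ± 0.36 against D8A (limma adjusted p = 0.0295 and 0.0226). ERG28, which tethers enzymes of ergosterol synthesis, had 388 and 313, 89.98 and 81.2, and 269 and 253. It fell by 2.02 ± 0.22 in D8A (limma adjusted p = 0.0025), was 1.60 ± 0.22 higher in D8B than in D8A (limma adjusted p = 0.0369), and its D8B difference from WT of -0.42 did not pass (limma adjusted p = 0.352). FTR1, the permease of high-affinity iron uptake, had 195 and 192, 133 and 95.0, and 378 and 377. D8B was highest and D8A lowest, without overlap, and the strains differed by 1.74 ± 0.24 (limma adjusted p = 0.0369), whereas neither difference from WT (-0.77 and 0.96) passed (limma adjusted p = 0.130 and 0.067). All 3 calls between the null strains were lost without either D8B library, and those of ERG28 and FTR1 without either WT library (highest limma adjusted p over the alternatives 0.165, 0.173 and 0.170 for TIR1, ERG28 and FTR1). The call of TIR1 against WT was lost when any 1 WT or D8B library was left out (0.166).

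The calls not yet described were LSM5, YER145C-A, YER158W-A, SLO1, SPO73 and SHC1, all on the right arm. YER145C-A was named by rule, and the others were named after their values were seen. LSM5, a subunit of the Lsm rings that bind RNA ends, had FPKM 218 and 169 in WT, 233 and 273 in D8A, and 545 and 520 in D8B, and rose by 1.47 ± 0.24 in D8B (limma adjusted p = 0.0138). YER145C-A, which overlaps LSM5, rose with it by 1.89 (limma adjusted p = 0.0047), and the reads of the pair cannot be told apart. YER158W-A and SLO1, under 300 bp like LSM5, rose in D8B by 1.35 and 0.87 (limma adjusted p = 0.0197 and 0.0499). With interval midpoints in place of the deposited FPKM, the YER158W-A difference was 0.15 (limma adjusted p = 0.894). SPO73, a gene of the sporulation membrane, had 71.9 and 70.2, 30.5 and 31.0, and 44.0 and 35.0 and fell by 1.18 ± 0.19 in D8A (limma adjusted p = 0.0144). SHC1, a sporulation activator of chitin synthesis with a mean FPKM under 10, fell by 1.76 ± 0.35 in D8B (limma adjusted p = 0.0311). With no filter on low values SHC1 was not called. In SPO73 and SHC1 every null library was below WT. Without a single WT library the calls of LSM5, SLO1, SPO73, SHC1 and YER158W-A were lost (highest limma adjusted p over the alternatives 0.188, 0.342, 0.153 and 0.204 for the first 4), as they were without a D8B library, or for SPO73 without D8A replicate 1. The call of YER145C-A was lost without WT replicate 2 (0.0549).

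Most of the other role lists held no call against WT, the exceptions being TIR1 in the cell wall list and ERG28 in the lipid list. For these lists, medians are log2 differences from WT in D8A and then in D8B, beside -0.01 and 0.06 over all features, and counts at an unadjusted p under 0.05 stand beside 17.7% and 18.5% of genes on the other chromosomes. The 6 cytosolic ribosomal protein genes had -0.41 and 0.07, and all 6 were below 0 in D8A and above 0 in D8B, with 0 at an unadjusted p under 0.05. The 11 genes of the proteasome and ubiquitin had 0.31 and 0.40 (10 of 11 above 0 in each, with 2 and 3 at an unadjusted p under 0.05). Among these RPN3, a lid subunit of the proteasome, had FPKM 135 and 136 in WT, 160 and 197 in D8A, and 211 and 242 in D8B. The 10 nucleoporin, transport receptor and secretion genes had 0.34 and 0.44 (2 and 3 unadjusted), and the 6 spindle and segregation genes 0.27 and 0.55 (2 and 4), among them CIN8, a kinesin motor, at 9.76 and 11.1, 17.3 and 16.4, and 16.7 and 25.2. In RPN3 and CIN8 all 4 null libraries lay above WT, but neither passed limma's test (adjusted p = 0.115 and 0.079 in D8B).

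The 11 DNA replication and repair genes had medians of 0.14 and 0.26 (1 and 3 unadjusted), with RNR1, the large subunit of ribonucleotide reductase, at 94.4 and 109, 130 and 129, and 128 and 174. Ribosome biogenesis and translation (11 genes) had 0.01 and 0.25 (1 and 1 unadjusted), and transcription regulators (11) -0.12 and 0.31 (2 and 3). Redox genes (5) had -0.29 and 0.11 (1 and 0 unadjusted), with MXR1, a methionine sulfoxide reductase, at 140 and 151, 80.7 and 117, and 133 and 127. Vacuole and proton pump genes (4) had -0.13 and 0.13 (0 and 0). Stress and storage carbohydrate genes (7) had -0.09 and -0.53 (2 and 4). Cell wall and mannosylation genes (7) had -0.58 and -0.12 (5 and 3 unadjusted), with UTR2, a chitin transglycosylase, at 396 and 416, 152 and 223, and 246 and 316, below WT in all 4 null libraries. Nutrient transport (6 genes) had -0.18 and 0.10 (1 and 2 unadjusted), and lipid genes (5) had 0.21 and 0.14 (1 and 1 unadjusted). No list was tested as a whole.

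**Figure D5:**
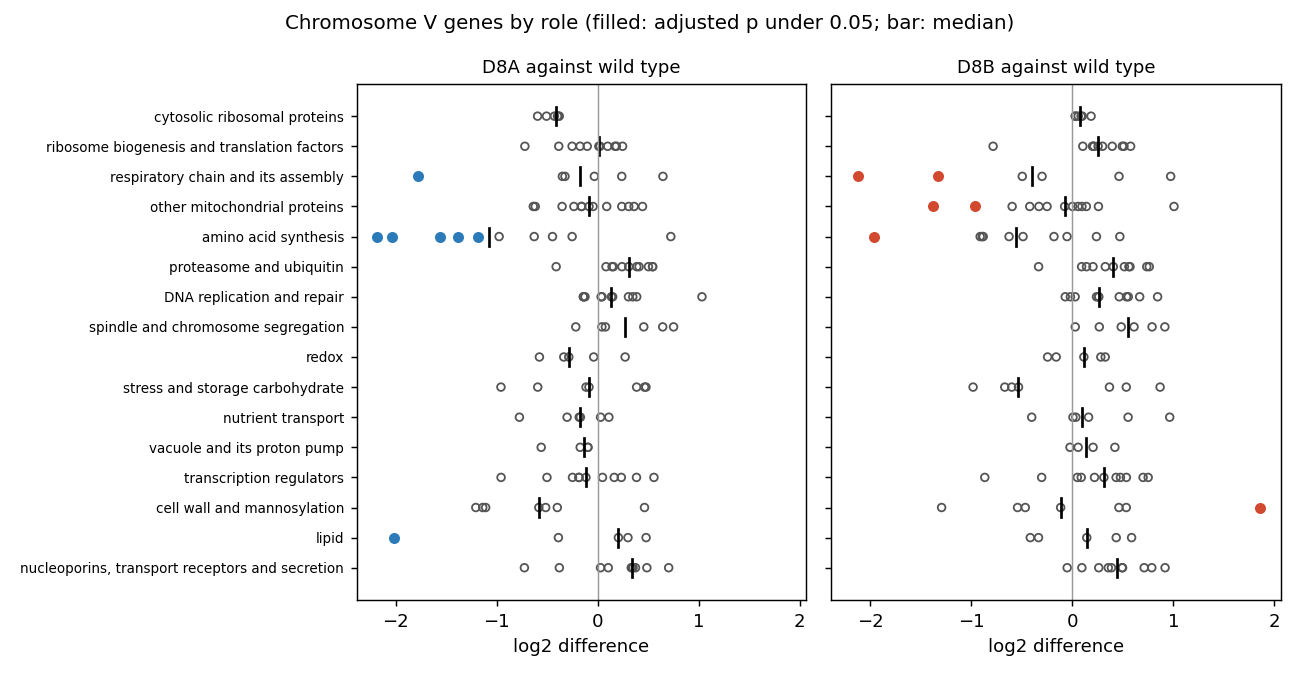
Log2 differences of chromosome V genes from WT by role list, 1 point per gene, in D8A and D8B, with a bar at the list median, a line at 0 and filled points for genes that passed. Amino acid synthesis has the lowest median in both strains, at -1.08 in D8A and -0.56 in D8B, and the proteasome list is at 0.31 and 0.40.

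Gene pairs with a copy on another chromosome were set side by side, since the copies share a role but not a chromosome. RPS8B on chromosome V and RPS8A on chromosome II moved alike, at -0.38 and -0.38 in D8A and 0.03 and 0.03 in D8B, and near-identical copies such as these may share reads. The chromosome V copy of RPL23 was 0.10 in D8B and its partner RPL23A was -0.13. With the chromosome V copy first, D8B values were 0.09 and -0.09 for RPL12A and RPL12B, and 0.06 and -0.07 for RPL34A and RPL34B. They were 0.18 and 0.05 for RPS24A and RPS24B, and 0.03 and -0.01 for RPS26B and RPS26A. None of these ribosomal genes passed the test. SER3 fell as given above, while SER33 on chromosome IX had FPKM 125 and 133 in WT, 99.9 and 104 in D8A, and 104 and 122 in D8B, and its differences of -0.33 and -0.20 did not pass (limma adjusted p = 0.42 and 0.66). For the translation factor eIF5A, HYP2 had -0.72 and -0.79, while ANB1 on chromosome X, its oxygen-repressed copy, had 48.2 and 61.7, 7.36 and 11.0, and 36.1 and 21.4 and fell by 2.47 in D8A (limma adjusted p = 0.004). SSA4, an inducible Hsp70 gene, had 14.1 and 16.2, 18.2 and 25.3, and 31.6 and 25.5, and its copy SSA3 on chromosome II was flatter at 0.22 in D8B beside 0.87 for SSA4, neither past the test (limma adjusted p = 0.62 and 0.08). In D8B, BMH1 and BMH2, both of the 14-3-3 proteins, had 0.17 and 0.02, and GPP2 and GPP1, glycerol phosphatases, had 0.37 and 0.50. DLD3 had 0.32 and its partner DLD2 -0.18 in D8B, neither past the test (limma adjusted p = 0.56 and 0.71). DLD3 was at 461 and 438 in WT and 455 and 698 in D8B, with D8B replicate 1 between the WT libraries. RNR1 had 0.55 in D8B and its partner RNR3 on chromosome IX -0.86, neither past the test (limma adjusted p = 0.24 and 0.18).

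Other levels mark the dynamic range of the chromosome. Among members of 300 bp or more, RPL23B and RPS24A had the highest FPKM of the right arm, at 2525 to 5030 and 2387 to 4856 across libraries, and HYP2 and YEL053W-A, which overlaps RPL12A, of the left arm. PDA1, a subunit of pyruvate dehydrogenase, lay in the window at 500 to 550 kb, at 381 and 397 in WT, 493 and 568 in D8A, and 711 and 859 in D8B, with each D8B library above each D8A library and each of these above WT. Its D8B difference of 1.01 missed the threshold (limma adjusted p = 0.057).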

How the data were processed

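The deposited values are FPKM with interval bounds, 1 table per library, per the file headers; the authors' tools were Bowtie2 2.1.0, TopHat2 2.0.9 and Cufflinks 2.1.1 with build R64, per the submitters' processing notes. Features were matched between tables by identifier. Features with status OK in all 6 tables and a mean FPKM of at least 1 (6925, of them 348 members) were tested on log2(FPKM + 1), which understates changes of low genes. One limma 3.58.1 fit (R 4.3.3) held all 6 libraries with a mean per group and variances that follow the mean. P-values are two-sided and Benjamini-Hochberg adjusted over all features, with a threshold of 0.05. The test was tested on simulated data. Depth was estimated from interval bounds, of which 81.2% to 93.3% were whole multiples within 0.02. Of 324 arm members, 285 matched RefSeq, the source of the sequences.

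The members, lists and tests were chosen with earlier results of these data known. Genes were named by rule: in each contrast up to 5 rises and 5 falls (mean FPKM of at least 10, 300 bp or more, called, no overlap of libraries), up to 3 genes per list, paralog pairs, genes at the centromere and ends, and the highest 2 per arm. Alternatives were another pseudocount, filters, scalings, interval midpoints, leaving out each library, and a replicate block.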

Additional observations from a re-analysis of the deposited data

Results flagged for a closer look

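For 3 chromosome V genes the difference from WT was not the same in D8A and D8B by the limma test of the difference itself. The D8B value minus the D8A value was 2.97 on the log2 scale for TIR1 (adjusted p = 0.0226), 1.74 for FTR1 (adjusted p = 0.0369) and 1.60 for ERG28 (adjusted p = 0.0369). In each gene both D8B libraries were above both D8A libraries, and no member was called in the opposite direction. All 3 calls were lost with a replicate block, with no filter on low values, with quantile normalization and with centred libraries. They were also lost when either D8B library was left out, and the cause was not tested.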

How the results depend on the processing

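The main counts of called members were 10 (D8A against WT), 14 (D8B against WT) and 3 (D8B against D8A). In the same order, features of 300 bp or more gave 43, 55 and 14 (13.0%, 13.2% and 3.19% of all features called; prior degrees of freedom 246.57, against 4.7 in the main fit). Interval midpoints gave 27, 34 and 9 (7.49%, 8.58% and 1.18%), quantile normalization 25, 24 and 0 (7.03%, 7.10% and 0.231%), and centred libraries 26, 25 and 0 (6.82%, 6.69% and 0.260%). With no filter on low values, D8B gave 7 and D8B against D8A gave 1. Leaving out 1 library gave 5 to 25, 3 to 23 and 0 to 8. Where this leaves a group with 1 library, that library is assumed to vary like the others. The replicate block gave 9, 9 and 0; the replicate numbers share only a label, since the replicate differences correlated at -0.15, 0.33 and -0.25 between pairs of groups. Of 27 calls, 5 were kept in all alternatives run for them (CYC7 and SER3 in D8B, ERG28, SER3 and TMT1 in D8A), 22 were lost in at least 1, and 0 reversed. The level of both arms in D8A was -0.040 with no filter and -0.043 by gene-wise differences; in D8B against WT it was 0.24 with no filter, 0.093 at a mean FPKM of at least 10 and 0.11 with midpoints; in D8B against D8A it was 0.21 at the higher minimum, 0.19 with midpoints, 0.21 without overlapping features and 0.20 gene-wise. The left arm in D8B was 0.041 (higher minimum) and 0.10 (midpoints) against WT and 0.024, 0.13 and 0.10 (without overlapping features) against D8A, and 0.081 to 0.48 and 0.10 to 0.50 with 1 library left out. The right arm was -0.058 (no filter), -0.035 (300 bp or more), -0.065 (without overlapping features) and -0.026 (gene-wise) in D8A, 0.24 (no filter), 0.056 (higher minimum) and 0.26 (300 bp or more) in D8B against WT, and 0.17 (higher minimum), 0.24 (midpoints), 0.20 (without overlapping features) and 0.19 (gene-wise) against D8A. Left minus right was -0.068 in D8A and -0.077 in D8B at 300 bp or more, and with 1 library left out -0.088 to 0.32 (D8B against WT) and -0.20 to 0.20 (D8B against D8A). The cause of these shifts was not tested. With 2 libraries per group, and D8A replicate 1 the shallowest, the pooled SD of 0.167 on the left arm is not a detection limit. Larger differences could not be told from replicate spread either. The left arm difference of 0.28 between D8B and WT, which was 0.081 without D8B replicate 2, is such a case.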

Other observations

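The 29 noncoding members held no call in any contrast of the limma fit. Over all features, 5.05%, 4.9% and 0.332% were called for D8A against WT, D8B against WT and D8B against D8A. In the same order, 3, 5 and 3 noncoding members were at an unadjusted p under 0.05, beside 17.7%, 18.5% and 8.82% of genes on the other chromosomes. The noncoding members had median log2 differences of -0.30, 0.14 and 0.34. SCR1, the RNA of the signal recognition particle, had FPKM 201 and 141 in WT, 119 and 176 in D8A, and 212 and 144 in D8B, with overlapping groups. Most of these RNAs carry no poly(A) tail, and the libraries were made from polyadenylated RNA.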
